A study of Rattus norvegicus with 6 samples.

Results

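A list of 46 genes of apoptosis, caspase activation and related cell death was followed in kidney tissue of Han:SPRD rats, which develop polycystic kidney disease. A gene entered through the probe sets that the array annotation gives to its symbol alone, and the probe set of highest mean signal over the 6 arrays stood for the gene. Of the 46 genes, 43 had such a probe set (66 of 31099 probe sets on the array), and 38 were bright enough to be tested, among 10645 genes tested in all. The 3 genes without a probe set of their own were Bax, Pmaip1 and Nlrp3, of which the last pair was not analysed here. The tissue was kidney, with 3 samples from Cy/+ rats, which are heterozygous for a missense mutation in Anks6 and form cysts slowly, and 3 samples from wild-type +/+ rats of the same strain. All samples were from males with no treatment named. Per the labels the rats were 10 weeks old, while the methods give a younger age for the array samples. One Affymetrix rat genome array was run per sample, and values are array signals in arbitrary units. No source says that the samples of a genotype came from separate animals, so the p-values given here rest on sample-to-sample spread that may be technical in part or in whole.

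Apoptosis is carried out by caspases, proteases that are made as inactive precursors. In the mitochondrial route, BH3-only proteins neutralise the anti-apoptotic members of the BCL2 family and free the effectors BAX and BAK to permeabilise the outer mitochondrial membrane, after which released cytochrome c drives APAF1 to activate caspase-9. In the death receptor route, FADD brings caspase-8 to the ligand-bound receptor, and c-FLIP and the inhibitor of apoptosis proteins (IAPs) hold caspases in check. Inflammatory caspases instead process cytokines and gasdermin D, and cell death among cyst-lining and other tubular cells is a known feature of polycystic kidneys.

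Expression of these genes was mostly higher in Cy/+ kidneys. At an adjusted p under 0.05 (limma, Benjamini-Hochberg over all 18625 tested probe sets), 24 of the 38 tested genes passed as higher and 5 as lower, while 9 missed the threshold. Over all genes tested the background was 37.4% higher and 29.3% lower, against 63.2% and 13.2% of the tested members. The counts by role given below stand against this same background and rest on few genes each. The median log2 fold change, Cy/+ over +/+, was 0.47 over the members and 0.09 over all genes tested. These shares describe the list, were not tested as a set, and leave out 5 members too dim to test. Among the 38, 35 had both genotype means at or above the signal of 77.8 that served as the threshold for testing (mean log2 signal of 6.28). Bak1 and Bik reached it only in Cy/+ kidneys, and so entered the test through the genotype where they are high, and Bcl2 reached it only in +/+ kidneys. For these 3 genes only a bound on the fold is given. The plot of signals by array gives every value behind these counts.

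**Figure D1:**
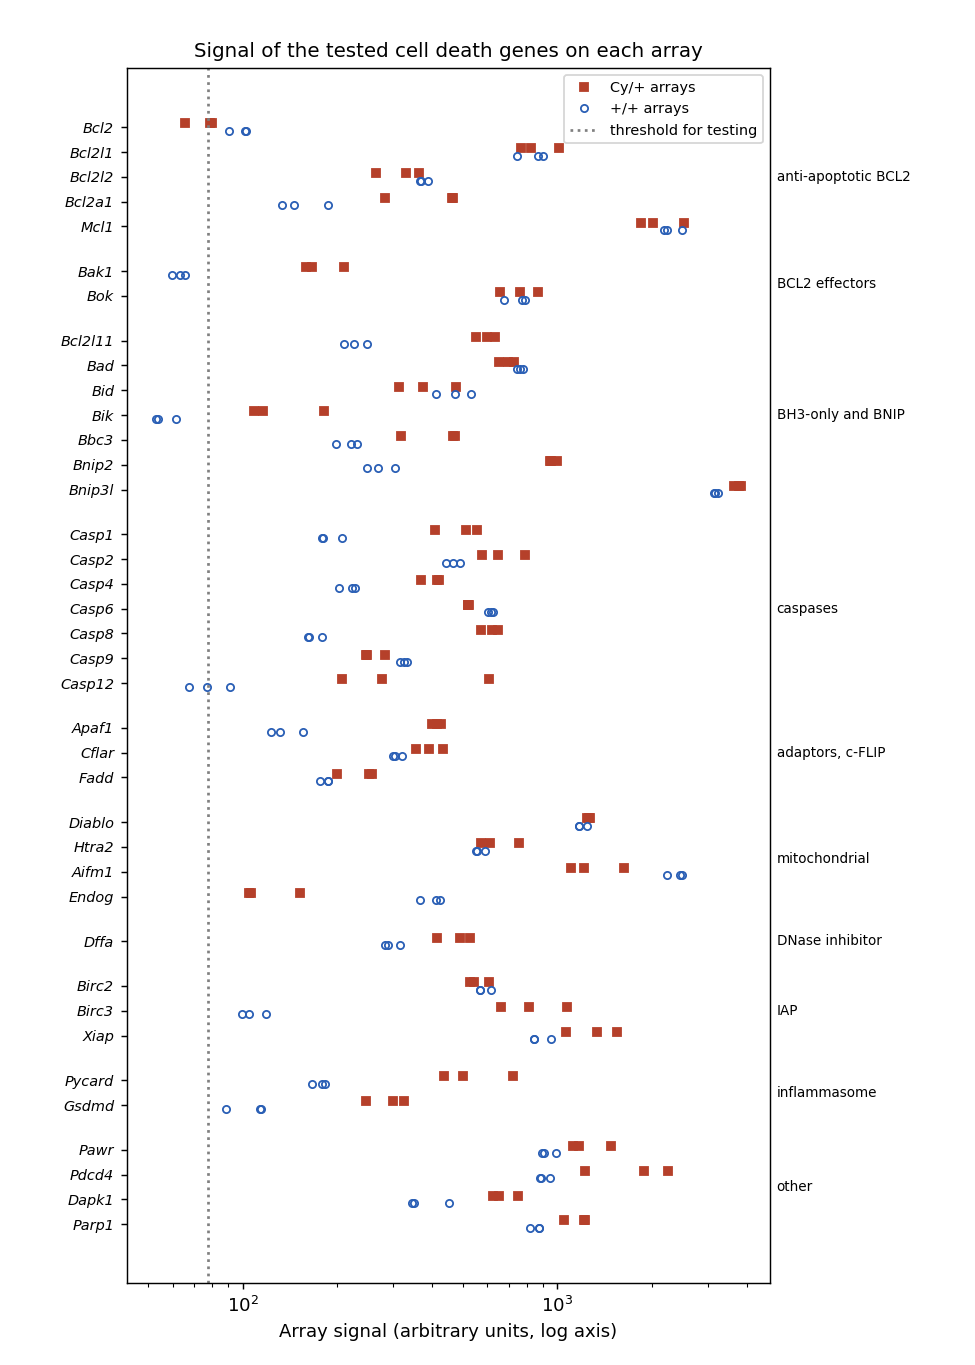
Signal of each of the 38 tested genes on each array (arbitrary units, log axis), with filled squares for the 3 Cy/+ arrays, open circles for the 3 +/+ arrays and a dotted line at the testing threshold of 77.8. In 24 genes (63.2%) every Cy/+ array lay above every +/+ array and in 7 (18.4%) below, against 41.5% and 33.1% of all 10645 genes tested.

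Whole kidney was measured, so fewer cells of a type and less RNA per cell cannot be told apart. Markers of several cell types differed with genotype. All 11 proximal tubule markers were lower in Cy/+ kidneys, with summed signals of 9336 to 22697 in Cy/+ and 85145 to 90946 in +/+ kidneys (Slc34a3, Aqp1 and Slc5a2 had the smallest p). All 8 tubular injury markers were higher, with sums of 58566 to 63100 in Cy/+ and 7197 to 9084 in +/+ kidneys (Clu, Lcn2 and Vim). Of 14 tested macrophage and leukocyte markers 13 were higher, with sums of 19535 to 29340 in Cy/+ and 10137 to 11505 in +/+ kidneys (Laptm5, Cd14 and Lyz2), while Cd163 was near background. Mrc1 was among the 13 and was below the testing threshold in +/+ kidneys. Lymphocyte markers were higher in 3 of 4 tested (Cd3e, Cd3d and Cd2, with list sums of 496.9 to 908.9 in Cy/+ and 319.8 to 348 in +/+ kidneys). Cd3e and Cd3d were below the testing threshold in +/+ kidneys and entered the test through Cy/+ kidneys, and Ms4a1, Cd79b and Cd8a were too dim to be tested. Fibroblast markers were higher in 4 of 6 and endothelial markers lower in 3 of 5. Over all genes tested 37.4% were higher and 29.3% lower, and these marker counts rest on few genes. The arrays differed technically too. The Actb 3'/5' signal ratio, a sign of RNA length and labelling, was 3.22 ± 0.26 in Cy/+ and 1.51 ± 0.0057 in +/+ kidneys (SD, n = 3 each), and all 18 hybridization controls were brighter on every Cy/+ array, with a median of 1.83-fold. The part of these differences in the results for the cell death genes was not tested.

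The anti-apoptotic BCL2 family, which holds back the mitochondrial route, showed no common direction by the brightest probe sets. Of 5 tested members 1 passed as higher, 1 as lower and 3 in neither direction, with a median log2 fold change of -0.12. Bcl2a1, which encodes a family member known from blood cells, had signals of 466, 462.8 and 284.1 in Cy/+ kidneys, against 145.9, 133.3 and 187.3 in +/+ kidneys. The lowest Cy/+ array still lay above the highest +/+ array, and the means were 404 ± 104 in Cy/+ and 156 ± 28.3 in +/+ kidneys (SD, n = 3 each; 2.56-fold, log2 1.36, SE 0.22, limma adjusted p = 0.00142). Bcl2 itself, the founding member, had 80.2, 65.54 and 78.87 in Cy/+ kidneys, against 102.8, 90.51 and 102 in +/+ kidneys. Its signals did not overlap, and the Cy/+ mean of 74.9 was below the testing threshold, so Bcl2 was at least 1.26-fold lower (limma adjusted p = 0.0187). Leaving out +/+ replicate 1 or +/+ replicate 3 ended this call. The remaining members, which encode BCL-XL, BCL-W and MCL1, lay above the testing threshold on every array and did not pass by their brightest probe sets. The second probe sets of Bcl2l1 and Mcl1 were lower in Cy/+ kidneys, as given with the other pairs of probe sets, and with probe sets averaged per gene or the second brightest used, 3 members of this family were called lower. Bcl2l1 averaged 867 in Cy/+ and 839 in +/+ kidneys (log2 0.04, SE 0.13, limma adjusted p = 0.788). Bcl2l2 differed by a log2 of -0.24 (SE 0.13, limma adjusted p = 0.127) and Mcl1 by -0.12 (SE 0.13, limma adjusted p = 0.422). Every Cy/+ array was below every +/+ array for Bcl2l2, while the genotypes overlapped for Bcl2l1 and Mcl1. Bcl2l10 was near background, at 38.3 ± 2.25 in Cy/+ and 53.7 ± 1.92 in +/+ kidneys, and was not tested.

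The pro-apoptotic BCL2 family, counted together with Bnip2 and Bnip3l, was higher in 6 of 9 tested members and lower in none. These shares were 66.7% and 0%, against 37.4% and 29.3% of all genes tested. Bnip2 and Bnip3l were among the 6. So were Bak1 and Bik, which entered the test through Cy/+ kidneys, where they are high. With the filter at the 60th percentile, where Bak1 and Bik were not tested, 4 members were higher and 0 lower. The median log2 fold change was 0.94 as fitted and 0.76 with Bak1 and Bik at their bounds. By another setting than the one used here (array weights, probe sets averaged per gene, or the second brightest probe set) 1 or 2 members were called lower. Bak1, which encodes one of the effectors that open the mitochondrial membrane, had signals of 209.6, 166.1 and 159.6 in Cy/+ kidneys, against 59.73, 65.5 and 63.13 in +/+ kidneys. All +/+ arrays were below the testing threshold and all Cy/+ arrays were above it, which makes Bak1 at least 2.28-fold higher (limma adjusted p = 8.14e-05). Bok, a relative of the effectors, averaged nearly the same in both genotypes (log2 0.03, SE 0.12, limma adjusted p = 0.866). The effector Bax was represented only by a probe set annotated jointly to Bax and LOC681314, which is not counted among the members. That probe set had 750, 616.8 and 556.8 in Cy/+ kidneys, against 498.6, 490.9 and 432.1 in +/+ kidneys (log2 0.43, SE 0.13, limma adjusted p = 0.0211), and its signal cannot be given to either gene.

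Among the BH3-only and BNIP genes, which sense damage or bind BCL2 proteins, 5 of 7 tested were higher. Bik was among the 5 and entered the test through Cy/+ kidneys. Bnip2, which encodes a BCL2-interacting protein, had 954.1, 997.1 and 949.1 in Cy/+ kidneys, against 268.9, 248.6 and 305.8 in +/+ kidneys. The genotypes stood far apart and the Cy/+ arrays were close together, at 967 ± 26.4 in Cy/+ and 274 ± 29 in +/+ kidneys (SD, n = 3 each; 3.53-fold, log2 1.82, SE 0.10, limma adjusted p = 2.47e-05). These values are of its brightest probe set. The other tested Bnip2 probe set was higher by less, at 1.27-fold (log2 0.35, SE 0.10, limma adjusted p = 0.0168). Bcl2l11, encoding the BH3-only protein BIM, had 596.3, 635.2 and 551 in Cy/+ kidneys, against 210.1, 225.5 and 247.8 in +/+ kidneys. No array of either genotype came near the other genotype, and the difference was 2.61-fold (log2 1.38, SE 0.10, limma adjusted p = 5.25e-05). Bbc3, encoding the p53-induced protein PUMA, had 466.7, 474.6 and 318.5 in Cy/+ kidneys, against 220.5, 197.4 and 231.8 in +/+ kidneys (1.91-fold, log2 0.94, SE 0.17, limma adjusted p = 0.00221). Cy/+ replicate 3 was the lowest of its genotype here and for Bcl2a1. Bik had 108.7, 181.7 and 116.5 in Cy/+ kidneys, against 53.1, 61.62 and 53.71 in +/+ kidneys. With every +/+ array below the threshold, Bik was at least 1.70-fold higher (limma adjusted p = 0.00129).

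The mitophagy receptor gene Bnip3l changed least among the members of this group that passed, at 1.18-fold (log2 0.23, SE 0.07, limma adjusted p = 0.0164). The call was lost with arrays centred on the median and without +/+ replicate 1 or +/+ replicate 2. Bad and Bid, a sensitizer and a caspase-8 substrate, gave log2 fold changes of -0.14 (SE 0.08, limma adjusted p = 0.159) and -0.30 (SE 0.17, limma adjusted p = 0.158). For Bad every Cy/+ array was below every +/+ array, and for Bid the genotypes overlapped. Bmf and Hrk were near background, with means of 51.6 and 49.7 in Cy/+ kidneys, against 56.7 and 54.4 in +/+ kidneys.

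**Figure D2:**
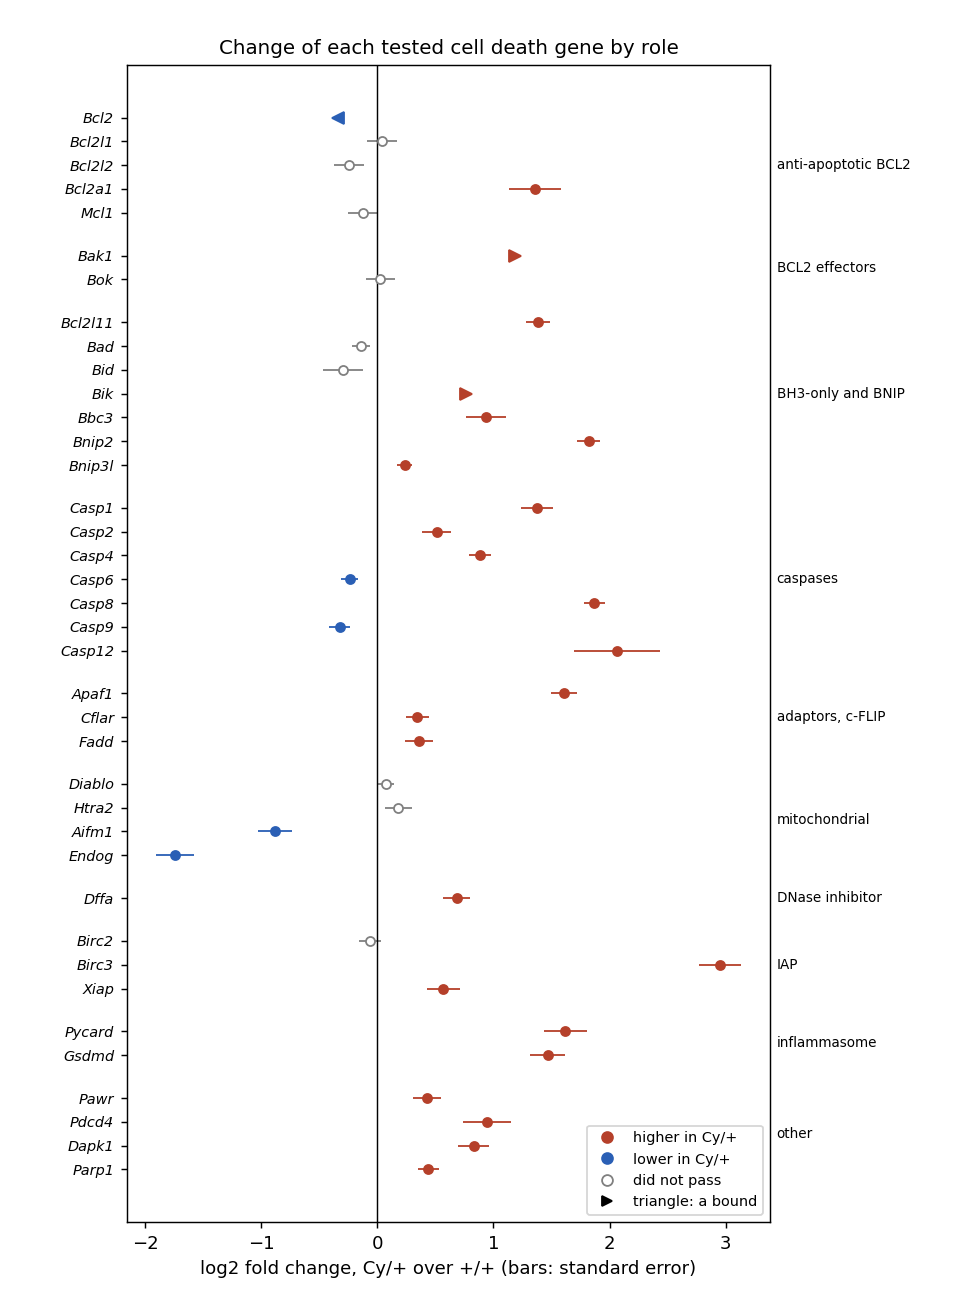
The log2 fold change, Cy/+ over +/+, of each tested gene by role, with bars of 1 standard error and filled points for genes past the limma threshold (red higher, blue lower in Cy/+). Birc3 lies farthest to the right at 2.95 and Endog farthest to the left at -1.74, and triangles mark Bcl2, Bak1 and Bik at their bounds of -0.34, 1.19 and 0.76, since 1 genotype lay below the testing threshold.

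All 7 measured caspase genes passed the test, 5 of them higher and 2 lower in Cy/+ kidneys, with a median log2 fold change of 0.88. These were 71.4% and 28.6%, against 37.4% and 29.3% of all genes tested, so the share of lower caspases was near the background. Casp8, the initiator of the death receptor route, had 619, 649.7 and 574 in Cy/+ kidneys, against 179, 163.1 and 162 in +/+ kidneys. The arrays within a genotype were close and the genotypes did not overlap, at 614 ± 38.1 in Cy/+ and 168 ± 9.51 in +/+ kidneys (SD, n = 3 each; 3.65-fold, log2 1.87, SE 0.09, limma adjusted p = 2.14e-05). Casp1, which processes interleukin-1 beta, had 553.7, 513.1 and 410.1 in Cy/+ kidneys, against 180.6, 178.7 and 207.4 in +/+ kidneys (2.59-fold, log2 1.37, SE 0.13, limma adjusted p = 0.000145). Casp4, an inflammatory caspase that binds bacterial lipopolysaccharide in its mouse form, had 420.1, 414.5 and 368.6 in Cy/+ kidneys, against 226.9, 222.1 and 202.7 in +/+ kidneys (1.85-fold, log2 0.88, SE 0.10, limma adjusted p = 0.000227). For both genes every Cy/+ array exceeded every +/+ array.

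Casp12, a rodent caspase tied to inflammation and endoplasmic reticulum stress, had 604.9, 207 and 278.2 in Cy/+ kidneys, against 67.71, 91.55 and 77.18 in +/+ kidneys. Cy/+ replicate 1 was far above the other Cy/+ arrays, and the +/+ arrays sat at the testing threshold. The difference was 4.18-fold (log2 2.06, SE 0.37, limma adjusted p = 0.0021) and the log2 value was 1.62 without Cy/+ replicate 1. Its coefficient of variation in Cy/+ kidneys, 58.4%, was the widest of the tested members, against 15.2% in +/+ kidneys. Casp2, a caspase linked to genotoxic stress, was 1.42-fold higher by its brightest probe set (log2 0.51, SE 0.13, limma adjusted p = 0.00925). Its second probe set, too dim over the 6 arrays to be tested, went the opposite way. It had 54.61, 52.22 and 51.76 in Cy/+ kidneys, against 136.5, 110 and 95.43 in +/+ kidneys.

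The lower caspases were Casp9, the initiator of the mitochondrial route, and Casp6, an executioner. Casp9 had 248.2, 284.2 and 247.1 in Cy/+ kidneys, against 316.5, 325.7 and 332.4 in +/+ kidneys (log2 -0.33, SE 0.09, limma adjusted p = 0.0175). Casp6 had 524.5, 519.1 and 521.1 in Cy/+ kidneys, against 615.5, 626.6 and 604.2 in +/+ kidneys (log2 -0.24, SE 0.07, limma adjusted p = 0.0225). In both genes the genotypes did not overlap, but the differences were small beside those of the higher caspases. The call for Casp9 was lost without +/+ replicate 2 or +/+ replicate 3, and that for Casp6 without any single +/+ replicate.

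Casp1, Casp4 and Casp12 all lie on rat chromosome 8, in that order with only LOC-named genes between or within them in RefSeq, and all 3 were higher in Cy/+ kidneys. The promoters of Casp1 and Casp12 are shown because, of the members with a probe set of their own and a promoter entry, only these held the motif described here. The 250 bases upstream of the start listed for each gene in RefSeq promoters (build GRCr8, plus strand) are given 5′ to 3′, with the match to a motif in capitals. The motif is GAAA, 2 bases of any kind and GAAA again, and on this strand it reads as the reverse complement. The Casp1 stretch is chr8:10872580-10872829 and the Casp12 stretch is chr8:10926938-10927187. The annotated span of Casp1 begins farther upstream than the start used here, so this stretch lies inside the gene's span.
Casp1: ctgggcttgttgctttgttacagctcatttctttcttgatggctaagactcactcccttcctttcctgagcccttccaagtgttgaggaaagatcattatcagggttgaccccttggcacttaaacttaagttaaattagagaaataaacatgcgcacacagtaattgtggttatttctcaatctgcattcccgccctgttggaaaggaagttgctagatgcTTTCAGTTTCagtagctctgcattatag
Casp12: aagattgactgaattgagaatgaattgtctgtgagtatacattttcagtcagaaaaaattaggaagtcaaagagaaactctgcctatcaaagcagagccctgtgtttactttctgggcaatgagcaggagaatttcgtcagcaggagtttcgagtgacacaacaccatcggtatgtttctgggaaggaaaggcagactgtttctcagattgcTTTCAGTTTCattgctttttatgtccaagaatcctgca
This is the core of the interferon-stimulated response element, and it was chosen after its matches were seen. The same 10 letters, TTTCAGTTTC, stand in both promoters, beginning 28 bases upstream of the Casp1 start and 38 bases upstream of the Casp12 start. On either strand the motif was found in 1140 of 33469 rat promoter entries of this length (3.41%). It was found in 2 of the 32 members with a probe set of their own and a promoter entry, counted as genes. Casp4 was not among those 32. A match describes the letters only and does not show that a factor binds.

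Caspase adaptors and the caspase-8 regulator c-FLIP, 3 genes in all, were each higher in Cy/+ kidneys by their brightest probe set. Apaf1, the scaffold of the apoptosome, had 427.6, 414.9 and 399.9 in Cy/+ kidneys, against 155.6, 122.7 and 131.2 in +/+ kidneys. The genotypes were well apart, at 414 ± 13.9 in Cy/+ and 137 ± 17.1 in +/+ kidneys (SD, n = 3 each; 3.05-fold, log2 1.61, SE 0.11, limma adjusted p = 4.50e-05). Cflar, which encodes c-FLIP, had 432.3, 356.8 and 391.2 in Cy/+ kidneys, against 321.5, 301.2 and 304.8 in +/+ kidneys (log2 0.34, SE 0.10, limma adjusted p = 0.0179). Fadd, the death receptor adaptor, had 200.3, 257.3 and 252.8 in Cy/+ kidneys, against 176.4, 187.2 and 186.3 in +/+ kidneys (log2 0.36, SE 0.12, limma adjusted p = 0.031). Both of these small differences came without overlap of arrays, and both calls were lost under quantile normalization. The Cflar call was also lost without +/+ replicate 2 or +/+ replicate 3, and the Fadd call without Cy/+ replicate 2, Cy/+ replicate 3 or any single +/+ replicate.

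Of 4 tested genes for proteins released from mitochondria, Endog and Aifm1 were lower in Cy/+ kidneys and the other two did not pass, with a median log2 fold change of -0.40. Endog, a mitochondrial nuclease that can cut nuclear DNA after release, had 105.1, 106.6 and 152.6 in Cy/+ kidneys, against 412.7, 424.2 and 366.8 in +/+ kidneys. The highest Cy/+ array was below the lowest +/+ array by a wide margin, and the means were 121 ± 27 in Cy/+ and 401 ± 30.4 in +/+ kidneys (SD, n = 3 each; log2 -1.74, SE 0.16, limma adjusted p = 0.000117), a Cy/+ over +/+ ratio of 0.299. Aifm1, an oxidoreductase of the inner membrane that also acts in caspase-independent death, had 1102, 1219 and 1633 in Cy/+ kidneys, against 2493, 2450 and 2232 in +/+ kidneys (ratio of 0.544, log2 -0.88, SE 0.15, limma adjusted p = 0.00161). Diablo and Htra2, whose products bind IAPs, gave log2 fold changes of 0.07 (limma adjusted p = 0.377) and 0.18 (limma adjusted p = 0.209). In the cytosol and nucleus, Dffa, which encodes the inhibitor of the apoptotic DNase, had 528.5, 492.5 and 414.3 in Cy/+ kidneys, against 315.8, 290.6 and 284.2 in +/+ kidneys (log2 0.68, SE 0.11, limma adjusted p = 0.00154). The gene of the DNase itself, Dffb, was near background at means of 53.4 in Cy/+ and 66.8 in +/+ kidneys and was not tested.

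The IAP genes held the widest change of the members. Birc3, encoding the ubiquitin ligase cIAP2 of the TNF receptor complex, had 810.3, 1072 and 662.5 in Cy/+ kidneys, against 99.29, 105.1 and 119 in +/+ kidneys. Every Cy/+ array was several times every +/+ array, at means of 848 ± 207 in Cy/+ and 108 ± 10.1 in +/+ kidneys (SD, n = 3 each; 7.74-fold, log2 2.95, SE 0.18, limma adjusted p = 3.17e-05). Its close relative Birc2, encoding cIAP1, did not pass, at 607.7, 542.8 and 528 in Cy/+ kidneys, against 616.5, 567.9 and 567 in +/+ kidneys (log2 -0.06, SE 0.09, limma adjusted p = 0.556). Xiap, which encodes the direct inhibitor of caspase-9 and the executioners, had 1066, 1551 and 1339 in Cy/+ kidneys, against 953.5, 842.3 and 843.9 in +/+ kidneys by its brightest probe set (1.48-fold, log2 0.57, SE 0.14, limma adjusted p = 0.0101). Another Xiap probe set went the opposite way, as given with the other pairs of probe sets. Birc5, encoding the mitotic protein survivin, was near background at 56.4 ± 4.35 in Cy/+ and 56.6 ± 2.73 in +/+ kidneys and was not tested. Of the tested proliferation markers 3 of 6 were higher (Mki67, Top2a and Cdk1), against 37.4% of all genes tested. All 3 were below the testing threshold in +/+ kidneys, so that they entered the test through Cy/+ kidneys.

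Both inflammasome genes measured were higher in Cy/+ kidneys. Pycard, the adaptor ASC that brings caspase-1 to its sensors, had 500.7, 721.5 and 435.7 in Cy/+ kidneys, against 165.9, 178.7 and 182.8 in +/+ kidneys (3.07-fold, log2 1.62, SE 0.18, limma adjusted p = 0.000256). Gsdmd, the pore-forming substrate of inflammatory caspases, had 326.1, 300.7 and 247.2 in Cy/+ kidneys, against 88.92, 114.1 and 113.3 in +/+ kidneys (2.76-fold, log2 1.47, SE 0.15, limma adjusted p = 0.000169). The genotypes did not overlap in either gene. These genes, Casp1 and Bcl2a1 are also made by leukocytes, whose marker sums stood beside them at 19535 to 29340 in Cy/+ and 10137 to 11505 in +/+ kidneys, and the part of those cells in the values was not tested.

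The other 4 cell death genes were each higher. Dapk1, a calcium and calmodulin dependent death kinase, had 751.4, 625.2 and 653.3 in Cy/+ kidneys, against 346, 452.5 and 349.6 in +/+ kidneys (log2 0.83, SE 0.13, limma adjusted p = 0.00131). Parp1, a DNA damage sensor cleaved by caspases, had 1214, 1225 and 1050 in Cy/+ kidneys, against 873.5, 875.9 and 821.1 in +/+ kidneys (log2 0.44, SE 0.09, limma adjusted p = 0.00407). Arrays did not overlap in these genes. Pdcd4, an inhibitor of translation, had 1227, 2244 and 1891 in Cy/+ kidneys, against 878, 884.3 and 945.1 in +/+ kidneys (log2 0.94, SE 0.21, limma adjusted p = 0.00554). Pawr, encoding the pro-apoptotic protein PAR-4, had 1482, 1175 and 1122 in Cy/+ kidneys, against 992.8, 895.2 and 904.3 in +/+ kidneys (log2 0.43, SE 0.12, limma adjusted p = 0.0164). Cy/+ replicate 1 was the lowest Cy/+ array for Pdcd4 and the highest for Pawr. The Pawr call was lost without +/+ replicate 2 or +/+ replicate 3. With probe sets that can bind several transcripts left out, Pdcd4 was represented by another probe set at a log2 of 0.22 and did not pass.

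Probe sets of the same gene did not always move alike. Of the 38 tested members 12 had several tested probe sets. In 4 of them (33.3%) all passed in the same direction (Bnip2, Bnip3l, Casp8 and Dapk1), in 2 (16.7%) probe sets passed in both directions (Cflar and Xiap), and in 6 some did not pass. Over all 2818 genes with several tested probe sets, 31.6% had all in the same direction and 16.3% had both directions. The second Xiap probe set had 47.37, 39.9 and 57.63 in Cy/+ kidneys, against 242, 212 and 230.3 in +/+ kidneys. Its Cy/+ arrays were all below the testing threshold, so this probe set was at least 2.93-fold lower (limma adjusted p = 3.75e-05), while the brightest one was higher. The second Cflar probe set had 175.5, 131.3 and 173 in Cy/+ kidneys, against 462, 447.4 and 422.9 in +/+ kidneys (log2 -1.48, SE 0.13, limma adjusted p = 9.83e-05), opposite to the brightest. A statement on the direction of Xiap or Cflar therefore holds for a probe set and not for the gene. Probe sets too dim to be tested were left out of these counts. Among them, the second probe sets of Casp2, Bcl2l11 and Dffa were lower on every Cy/+ array, opposite to the brightest. Those of Bcl2l2 and Casp9 were lower on every Cy/+ array, as their brightest were.

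For 4 genes that did not pass by their brightest probe set, the other tested one was lower in Cy/+ kidneys. The second Mcl1 probe set had 550.8, 579.1 and 496 in Cy/+ kidneys, against 1150, 1053 and 955.4 in +/+ kidneys (log2 -0.96, SE 0.10, limma adjusted p = 0.000214). The second Bcl2l1 probe set had 84.86, 72.36 and 105.7 in Cy/+ kidneys, against 276.4, 244.6 and 142.9 in +/+ kidneys (log2 -1.30, SE 0.26, limma adjusted p = 0.00376). Neither pair of genotypes overlapped. The second probe sets of Bid and Bok had log2 fold changes of -0.89 (limma adjusted p = 0.000953) and -0.56 (limma adjusted p = 0.00274). Apaf1's second probe set did not pass at a log2 of -0.30 (limma adjusted p = 0.0527), and that of Casp8 rose by less than the brightest, at 0.56 (limma adjusted p = 0.00795). In 10 of the 12 genes (83.3%) the second brightest probe set had the lower log2 fold change, with a median difference of -1.07 on the log2 scale, and over all 2818 genes this was so in 69.4%, with a median of -0.44. The Actb 3'/5' ratios of 3.22 in Cy/+ and 1.51 in +/+ kidneys stood beside this pattern, and their part in it was not tested.

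**Figure D3:**
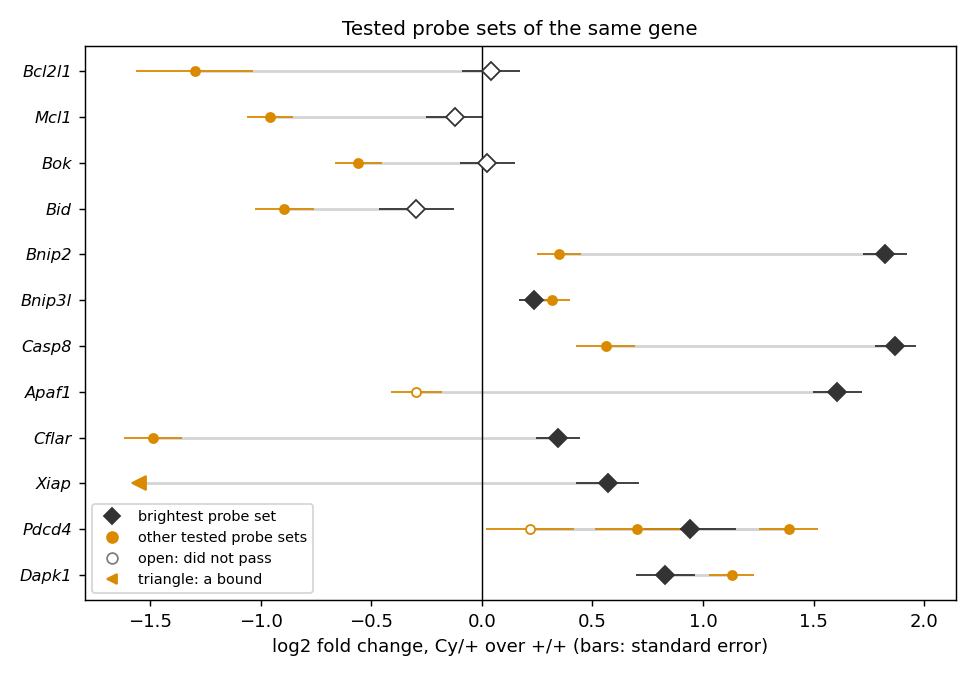
The log2 fold change, Cy/+ over +/+, of every tested probe set of the 12 genes with several, with bars of 1 standard error, dark diamonds for the brightest probe set and orange circles for the others (open symbols did not pass). The second Xiap probe set is a triangle at its bound of -1.55, against 0.57 for the brightest, Cflar spans 0.34 to -1.48, and the Bnip3l probe sets lie at 0.23 and 0.32.

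Partner genes were compared on the same array, since a difference of log2 signals within an array does not depend on its scaling. Probe sets differ in how well they bind, so only the shift between genotypes was read and not the size of a difference. Of 5 pairs listed, 3 had a tested probe set for both genes, and those with Bax or Dffb did not. P-values were adjusted over the 3. Casp8 minus its regulator Cflar was 0.65 ± 0.19 in Cy/+ and -0.88 ± 0.034 in +/+ kidneys (log2 units, SD, n = 3 each), a shift of 1.53 (exact two-sided permutation p = 0.1, adjusted p = 0.1). For Bak1 minus Mcl1, whose product holds BAK in check, only a bound can be given, since Bak1 was below the testing threshold on every +/+ array. With Bak1 set at the threshold there, the shift was at least 1.31. Casp9 minus its inhibitor Xiap was -2.33 ± 0.20 in Cy/+ and -1.44 ± 0.14 in +/+ kidneys, a shift of -0.89 (exact two-sided permutation p = 0.1, adjusted p = 0.1). For Casp8 minus Cflar and Casp9 minus Xiap the genotypes did not overlap, and 0.1 is the smallest p that 3 arrays against 3 allow, so no pair could pass 0.05. With the second Xiap probe set, which was below the testing threshold on every Cy/+ array, the Casp9 minus Xiap shift was at least 1.22, in the other direction.

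**Figure D4:**
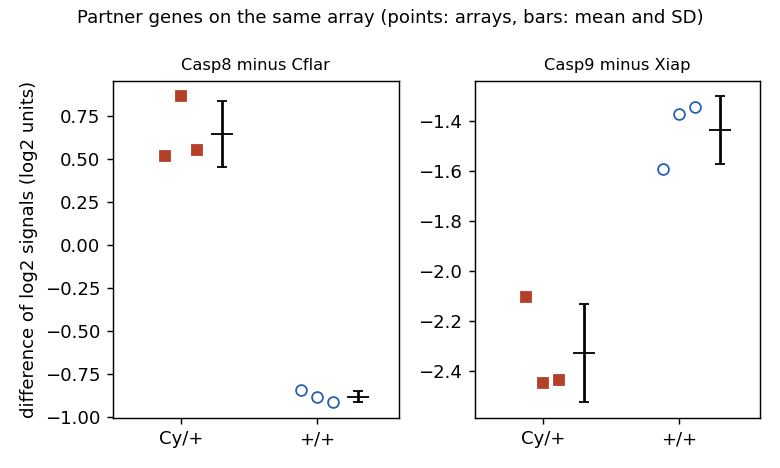
Difference of log2 signals between 2 partner genes on the same array (vertical axis, log2 units, not starting at 0), with filled squares for Cy/+ arrays, open circles for +/+ arrays, and bars for the mean and SD. Casp8 minus Cflar lies higher in Cy/+ arrays by 1.53, and Casp9 minus Xiap, by the brightest Xiap probe set, lies lower with a shift of -0.89.

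Arrays of Cy/+ kidneys varied more than those of +/+ kidneys. The coefficient of variation was wider in Cy/+ in 32 of 38 tested members, with medians of 14.4% in Cy/+ and 5.87% in +/+ kidneys. The share over all genes tested is not given here, so this count cannot be read as a trait of the members. Among the 24 members called higher, the highest array was Cy/+ replicate 1 in 13 and Cy/+ replicate 2 in 11. Correlations of log2 signals over all probe sets were 0.982 to 0.990 among Cy/+ arrays, 0.997 among +/+ arrays and 0.907 to 0.940 between genotypes, and probe sets are not independent replicates.

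Other genes of the same pathways, 56 from a separate list of which 35 were tested, counted 14 higher, 10 lower and 11 not passed. These shares of 40% and 28.6% were near the 37.4% and 29.3% of all genes tested, so the counts set this list little apart. Its median log2 fold change was 0.14, and the counts of its parts below rest on few genes. Genes of death receptors, their ligands and their adaptors were higher in 5 of 9 tested and lower in none. The death receptor gene Tnfrsf1a, for TNF receptor 1, had 2295, 1933 and 1795 in Cy/+ kidneys, against 623, 574.6 and 615.2 in +/+ kidneys (log2 1.73, SE 0.11, limma adjusted p = 3.36e-05). Siva1, a p53-induced apoptosis gene, and Il1b, whose product caspase-1 cleaves, gave 1.69 (SE 0.11, limma adjusted p = 3.55e-05) and 1.16 (SE 0.12, limma adjusted p = 0.000169). Faslg was near background in both genotypes, and Fas, with 110, 100.6 and 70.29 in Cy/+ kidneys, against 57.54, 52.89 and 50.76 in +/+ kidneys, was too dim over the 6 arrays to be tested. Other BCL2 relatives and mitochondrial genes were lower in 7 of 13 tested and higher in 2. The lower ones included the mitophagy receptor gene Bnip3, paralog of Bnip3l, with 1360, 905.2 and 1223 in Cy/+ kidneys, against 2976, 3118 and 2945 in +/+ kidneys (log2 -1.39, SE 0.15, limma adjusted p = 0.000202). The outer membrane channel gene Vdac1 was lower too, at -1.01 (SE 0.12, limma adjusted p = 0.000316), as was the death kinase gene Dapk2, at -2.04 (SE 0.13, limma adjusted p = 3.35e-05). Dapk2 and its relative Dapk1 thus differed in opposite directions, and Bnip3 and Bnip3l did as well.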

How the data were processed

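Kidney RNA, 3 samples each from Cy/+ and +/+ Han:SPRD rats, was labelled with oligo-dT primers (one-cycle protocol) and hybridized to 1 array per sample. The authors deposited 1 linear signal intensity per probe set, made with the MAS5 method per the submitters' processing notes, and the exact scaling between arrays is not given in the sources used here. Detection calls were not used. Signals (10.65 to 32240) were taken to log2 with no pseudocount. The 57 control probe sets were left out, and probe sets at or above the 40th percentile of mean log2 signal (6.28) were tested, 18625 in all. The small number of arrays limits the precision.

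Symbols come from the platform annotation, with 436 probe sets of several symbols not used for any gene and 9831 unnamed here. Of the 436, the probe set of Bax and LOC681314 is given on every array but was not counted. The genotype contrast was fitted in limma 3.58.1 under R 4.3.3, with moderated variances and an intensity trend, Benjamini-Hochberg over all tested probe sets, threshold 0.05. The fit was tested on simulated data. An "at least" fold sets the brighter genotype against the testing threshold where the dimmer one lies below it. The members, gene lists and tests were chosen with earlier results of these data known. Signals on every array are given for up to 4 passing members of each role by smallest adjusted p (others, chosen after their values were seen, are Birc2, Casp6, Casp9, Fas and second probe sets), and up to 3 other pathway genes each way and up to 3 markers of a list are named by the same measure. Further pathway and marker genes named only as near background were not chosen by that measure. Partner genes were compared with an exact permutation test over the arrays. Promoters and gene order come from RefSeq (GRCr8).

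Alternatives were quantile, median and trimmed mean scaling, a floor of 32, an added 16 before the log, the filter dropped or set at the 60th percentile, array weights, no trend, the methods' t-test, the replicate block, other choices of probe set and leaving out each array.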

Additional observations from a re-analysis of the deposited data

How the results depend on the processing

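Of the 29 members that passed, 20 kept their direction and their side of the threshold under every listed alternative that gave a value. With the second brightest tested probe set, a choice made after seeing the data, 19 did so too. The exceptions were Bcl2, Bnip3l, Casp6, Casp9, Cflar, Fadd, Xiap, Pawr, Pdcd4 and, with the second probe set only, Apaf1. The 24 members higher in Cy/+ were 19 to 24 under every alternative run.

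The 5 members lower in Cy/+ were 10 with probe sets averaged per gene, 11 with the second brightest and 2 to 8 leaving out 1 array. The 1 lower anti-apoptotic member was 2 with quantile normalization or no filter, 0 with the 60th percentile filter (where Bcl2 was not tested), 3 with the mean or the second brightest probe set, and 0 to 3 leaving out 1 array. For the pro-apoptotic family with Bnip2 and Bnip3l the count of 0 lower was 1 with array weights or the mean, 2 with the second brightest and 0 to 1 leaving out 1 array. Of the IAP genes 2 were higher and 0 lower, against 1 and 1 with the mean or the second brightest.

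The 2 lower caspases were 1 with the replicate number as a block and 0 to 2 leaving out 1 array. Deviations from the genotype means correlated little between samples of the same number (r of 0.15, -0.11 and -0.15). With 3 arrays per genotype this cannot settle whether the numbers pair the arrays. The block ended the calls of Casp6 and Bnip3l. The shift of Casp9 minus Xiap was 1.93 as fitted with the second Xiap probe set, and at least 1.22 with that probe set at the testing threshold in Cy/+ kidneys.

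Directions turned in log2 fold change for Bcl2l1 (-0.029 with median centring, -0.045 with array weights, -0.63 with the mean, -1.30 with the second probe set, -0.075 to 0.13 leaving out 1 array), Bok (-0.046 with median centring, -0.27 with the mean, -0.56 with the second, -0.073 to 0.13 leaving out 1 array), Apaf1 (-0.30 with the second), Cflar (-0.57 with the mean, -1.48 with the second) and Xiap (-0.84 with the mean, -2.25 as fitted with the second, which is below the testing threshold in Cy/+ kidneys and stands for at least 2.93-fold lower). The cause was not tested.

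Signal over background limited the values of dim probe sets. Pairs with Bax or Dffb were not run.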
